A study of Homo sapiens with 14 samples.

Results

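The fibrillar collagen genes COL1A1, COL1A2, COL2A1, COL3A1, COL5A1, COL5A2, COL5A3, COL11A1 and COL11A2 were examined in LX-2 cells, a wild-type immortalised human hepatic stellate cell line, grown for 2 days on matrices that were either soft or stiff. They are 9 of the 19794 protein-coding genes of GENCODE release 44 on hg19 (GRCh37). Every peak of 14 lists that overlapped a gene body or the 20 kb on either side of it was assigned to that gene. The lists came from CUT&Tag, in which a transposase tethered to an antibody cuts out the DNA around the target for sequencing. Antibodies were against phosphorylated JUN (p-JUN), an AP-1 transcription factor, and the histone marks H3K4me3, H3K27ac and H3K27me3. Each matrix had 2 libraries of p-JUN, of H3K4me3 and of H3K27me3. The single H3K27ac list of each matrix was merged over replicates, and no error between them can be given. The soft libraries were titled 2K and the stiff ones 40K, except that the p-JUN stiff libraries were titled TCP, the study's abbreviation for culture plastic. Stiff p-JUN values therefore refer to libraries labelled stiff, in which the cells may have been on plastic. The labels do not say whether libraries came from separate cultures, so the p-values measure the spread between these libraries, which may be technical. A peak list also cannot tell a site occupied in fewer cells from one occupied less in each cell.

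Fibrillar collagens are secreted as procollagens, three-chain helices whose ends are cut off before the molecules assemble into the fibrils of the extracellular matrix. COL1A1 and COL1A2 encode the chains of type I collagen and COL3A1 that of type III, the main fibrillar collagens of liver scar, which activated stellate cells deposit. COL5A1, COL5A2 and COL5A3 encode type V chains, which are built into type I fibrils and limit their width. COL2A1, COL11A1 and COL11A2 encode the chains of cartilage fibrils. H3K4me3 marks active or poised promoters, H3K27ac active promoters and enhancers, and H3K27me3 chromatin silenced by Polycomb.

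The strongest p-JUN region of each gene is shown by 61 bases around its summit or around an AP-1 motif near it, because the motif was looked for there. Regions were made by merging overlapping peaks of the 4 p-JUN libraries, and the strongest was the one with the highest mean fold over local background. All are on the plus strand of GRCh37, and for COL3A1, COL5A1 and COL11A2 the stretch was centred on a motif. The COL5A1 stretch begins past the summit and does not contain it. Capitals mark the AP-1 motif TGACTCA or TGAGTCA, which are reverse complements of each other, so both strands are covered.
COL1A1, chr17:48255830-48255890: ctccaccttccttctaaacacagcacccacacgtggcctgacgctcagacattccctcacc
COL1A2, chr7:94011728-94011788: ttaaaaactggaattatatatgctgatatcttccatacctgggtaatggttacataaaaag
COL3A1, chr2:189849544-189849604: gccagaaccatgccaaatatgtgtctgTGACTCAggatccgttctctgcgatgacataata
COL5A1, chr9:137516885-137516945: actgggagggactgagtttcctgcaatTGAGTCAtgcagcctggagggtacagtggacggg
COL5A2, chr2:189951605-189951665: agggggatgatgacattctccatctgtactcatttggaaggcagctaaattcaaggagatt
COL5A3, chr19:10119987-10120047: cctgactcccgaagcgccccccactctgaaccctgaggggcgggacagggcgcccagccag
COL11A1, chr1:103357901-103357961: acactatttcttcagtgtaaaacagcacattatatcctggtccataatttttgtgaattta
COL11A2, chr6:33173376-33173436: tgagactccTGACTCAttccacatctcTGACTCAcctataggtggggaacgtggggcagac

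The COL3A1 summit lay in an exon of that gene and the COL5A1 site upstream of the gene. The COL11A2 site was in a region within 1 kb of a start of the neighbouring gene HSD17B8, a short-chain dehydrogenase. The COL3A1 motif was centred 28 bp before the summit in genome coordinates and the COL5A1 motif 42 bp after it. For COL11A2 the motif nearest to the summit was centred 10 bp before it. No member had an AP-1 motif in the printed stretch of its strongest site other than these 3, and COL2A1 had no p-JUN peak at all.

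The promoters of COL1A2, with fewer CpG, and of COL5A1, with more, are shown as examples. COL3A1 and COL5A2, not shown, had fewer CpG around the start than COL1A2. Printed are the 250 bases before the canonical start site, on GRCh37, with each CpG in capitals. CpG are marked because H3K4me3 usually lies on CpG-rich promoters.
COL1A2, chr7:94023957-94024206, plus strand: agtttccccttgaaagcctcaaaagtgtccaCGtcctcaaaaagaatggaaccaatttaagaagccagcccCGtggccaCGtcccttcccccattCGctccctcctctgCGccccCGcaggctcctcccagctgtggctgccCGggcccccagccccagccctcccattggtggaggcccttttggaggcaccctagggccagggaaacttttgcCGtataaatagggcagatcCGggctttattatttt
COL5A1, chr9:137533399-137533648, plus strand: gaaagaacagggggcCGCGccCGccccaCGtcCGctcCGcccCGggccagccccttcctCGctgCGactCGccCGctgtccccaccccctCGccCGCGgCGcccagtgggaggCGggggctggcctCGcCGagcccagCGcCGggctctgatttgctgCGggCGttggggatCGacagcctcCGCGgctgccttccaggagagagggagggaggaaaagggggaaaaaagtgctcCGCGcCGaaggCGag

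The printed COL1A2 promoter held 9 CpG and that of COL5A1 held 29. The H3K4me3 region of COL5A1 began past the start and did not cover the printed stretch. Other members went against the usual pairing. Around its canonical start COL5A2 had fewer CpG than COL1A2 and had H3K4me3 in all 4 libraries, and COL2A1 had many CpG and no H3K4me3 within 1 kb.

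Across the series, the p-JUN libraries held 48163 to 54168 peaks and the H3K4me3 libraries 18096 to 18857. H3K27ac peaks numbered 18238 on soft and 13322 on stiff, and the H3K27me3 libraries 6974 to 19843, the highest being soft replicate 1. Read totals were not analysed here. As a stand-in for depth, the number of fragments at each narrow peak's summit was recovered from the deposited values. Its median was 60 to 64 in the p-JUN libraries, 120 to 207 in the H3K4me3 libraries, with stiff replicate 2 the highest, and 26 to 27 in the H3K27ac lists. As a check of the cell type, H3K4me3 was looked for within 1 kb of a start site. It was present in all 4 libraries for 7 of 12 stellate cell and fibroblast marker genes (58.3%), among them VIM, ACTA2, TAGLN and PDGFRB. Of all protein-coding genes 62.8% had it, so this count does not set the markers apart. H3K4me3 was called in no library at DES and LRAT, and in only some libraries at PDGFRA, HAND2 and LHX2. None of 6 hepatocyte markers and none of 5 macrophage and leukocyte markers had H3K4me3 at a start in any library, whereas 1 of 4 endothelial markers (KDR) and 2 of 4 cholangiocyte markers (EPCAM and SOX9) had it in all 4.

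To ask where the genes carried p-JUN and the histone marks, peaks were counted per gene and library. The 9 windows together held 54 p-JUN, 19 H3K4me3, 17 H3K27ac and 13 H3K27me3 regions. p-JUN regions were found in any library at 8 of the 9 genes, compared with 83.5% of all protein-coding genes in windows of the same kind, and each of these 8 had at least 1 region called in all 4 libraries. H3K27ac was found at 7 genes, compared with 62.4%, and H3K27me3 at 5, compared with 34.7%. Within 1 kb of the gene's own starts lay 7 of the 54 p-JUN regions, while 28 lay elsewhere in a gene body, 9 upstream, 8 downstream and 2 at the start of a neighbouring gene. The 9 regions at any protein-coding start were 16.7% of the 54, compared with 18.0% of all p-JUN regions.

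**Figure D1:**
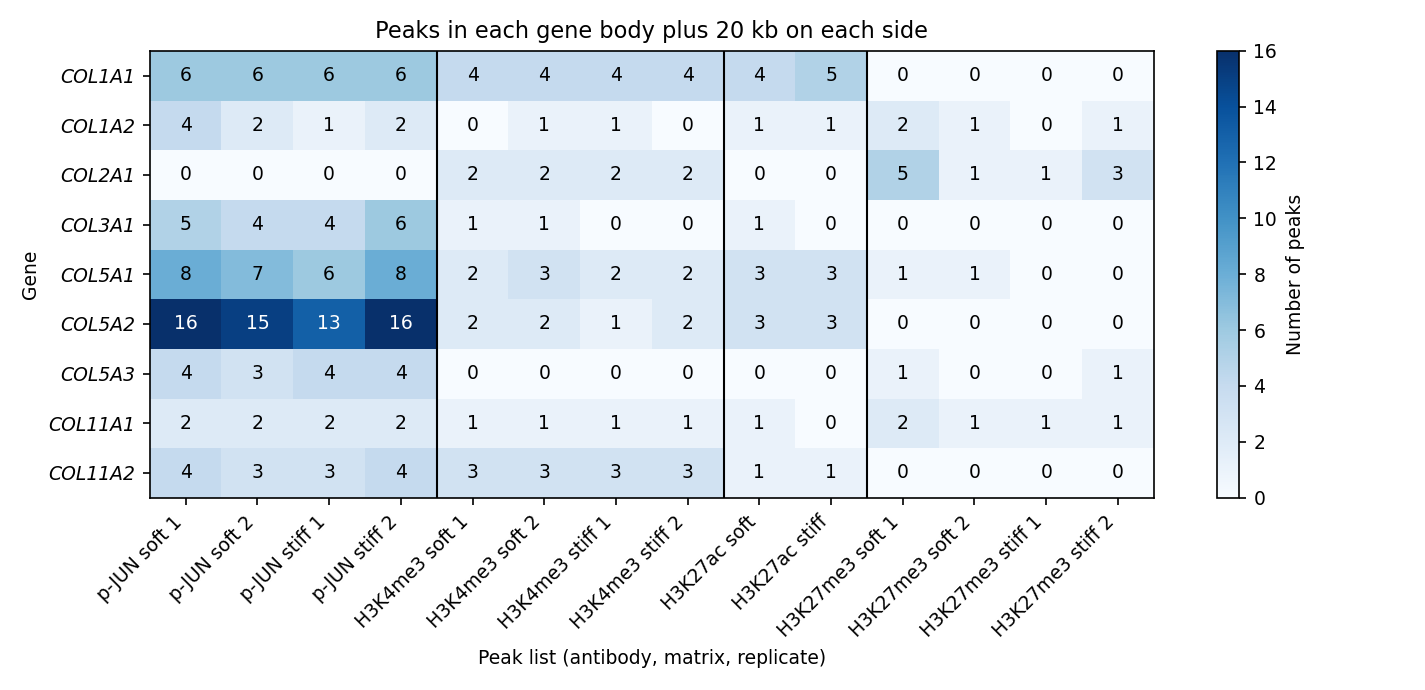
Number of peaks (colour and digits) of each of the 14 lists (columns) in each gene body plus 20 kb on each side (rows). COL5A2 held 13 to 16 p-JUN peaks per library and COL1A1 6 in every library, while COL2A1 held 0. A pair of p-JUN regions lies in the windows of both COL3A1 and COL5A2, which are neighbours, and is counted for each.

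COL1A1, for the α1 chain of type I collagen, had 6 p-JUN peaks in each of the 4 libraries, and all 6 regions were shared by the 4. In the 57.5 kb of its window this was 10.4 regions per 100 kb, a higher density than at 99.2% of protein-coding genes, whose median was 1.90. COL5A2, for the α2 chain of type V collagen, had 16 and 15 peaks on soft versus 13 and 16 on stiff. Its 11 shared regions gave a density of 4.71 per 100 kb, above 85.7% of genes. COL5A1, for the α1 chain of type V, had 8 and 7 peaks on soft versus 6 and 8 on stiff, with 2.47 shared regions per 100 kb over a window of 243 kb. The type I partner COL1A2 had fewer peaks, 4 and 2 on soft versus 1 and 2 on stiff, and only 1 region shared by all 4 libraries, 12.4 kb upstream. Its density of 1.31 per 100 kb was below the median gene's. Of all protein-coding genes, 73.3% had at least 1 p-JUN region called in every library in a window of the same kind.

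COL3A1 had 5 and 4 p-JUN peaks on soft and 4 and 6 on stiff. COL5A3, for the α3 chain of type V, had 4 and 3 on soft and 4 in each stiff library. The cartilage collagen COL11A1 had 2 peaks in each library, both near the 3′ end of the gene, 229 and 216 kb from its canonical start. COL11A2 had 4 and 3 peaks on soft versus 3 and 4 on stiff, of which the strongest lay at the start of HSD17B8. At COL1A2 and COL5A3 the ranges on soft and stiff met at a single value, 2 and 4 peaks, and at the other genes with p-JUN peaks they overlapped or were equal.

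At the start sites of the 9 genes, H3K4me3 was called in every library at 3, COL1A1, COL5A1 and COL5A2, compared with 62.8% of all protein-coding genes. p-JUN was called there in every library at 2, COL1A1 and COL5A3, compared with 38.2%. COL5A1 and COL5A2 had p-JUN at the start in both soft libraries and in stiff replicate 2, and COL1A2 in soft replicate 1 and stiff replicate 2. COL5A3 and COL1A2 thus carried p-JUN within 1 kb of the start with H3K4me3 in no library. The COL5A3 p-JUN summit lay 1.16 kb past the start and the COL5A1 H3K4me3 summit 1.27 kb past it. In both cases only the edge of the region came within 1 kb. COL3A1 had an H3K4me3 peak at its start in soft replicate 2 alone, with 21 fragments and a −log10 q of 5.56, little above the lowest values of the p-JUN, H3K4me3 and H3K27ac lists, and no p-JUN. COL2A1 had only an H3K27me3 peak, in soft replicate 1. None of the 4 marks was called within 1 kb of a start of COL11A1 or COL11A2. H3K27ac was at the start of no member in both lists, where 21.3% of all genes had it, and H3K27me3 of none in every library, where 2.43% did. Nor was p-JUN or H3K4me3 found at a member's start in both libraries of 1 matrix alone, as they were on stiff at 0.258% and 0.207% of genes and on soft at 0.925% and 0.177%. Within 2 kb, H3K4me3 in every library was reached at 5 genes, since COL2A1 and COL11A1 had a region just inside the gene.

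No difference in H3K4me3 between soft and stiff passed the test at these starts. At COL1A1 (chr17:48277172-48279276) the summit fold was 6.57 and 7.24 on soft versus 7.40 and 7.07 on stiff. At COL5A1 (chr9:137534473-137535981) it was 6.03 and 5.82 on soft versus 6.92 and 6.28 on stiff, and at COL5A2 (chr2:190042946-190044964) 6.01 and 6.39 on soft versus 6.99 and 7.07 on stiff. The 2 matrices did not overlap at COL5A1 and COL5A2, as at 48.8% of all regions and 8 of the 13 member regions called in all 4 libraries, but each library was centred on its own median before testing, and the differences after this were −0.01 ± 0.08 (log2, SE) at COL1A1, 0.08 ± 0.09 at COL5A1 and 0.11 ± 0.07 at COL5A2. None passed the test, limma's moderated test over all 16098 H3K4me3 regions called in all 4 libraries, whose adjusted p-values at these 3 starts were 0.984, 0.814 and 0.652.

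**Figure D2:**
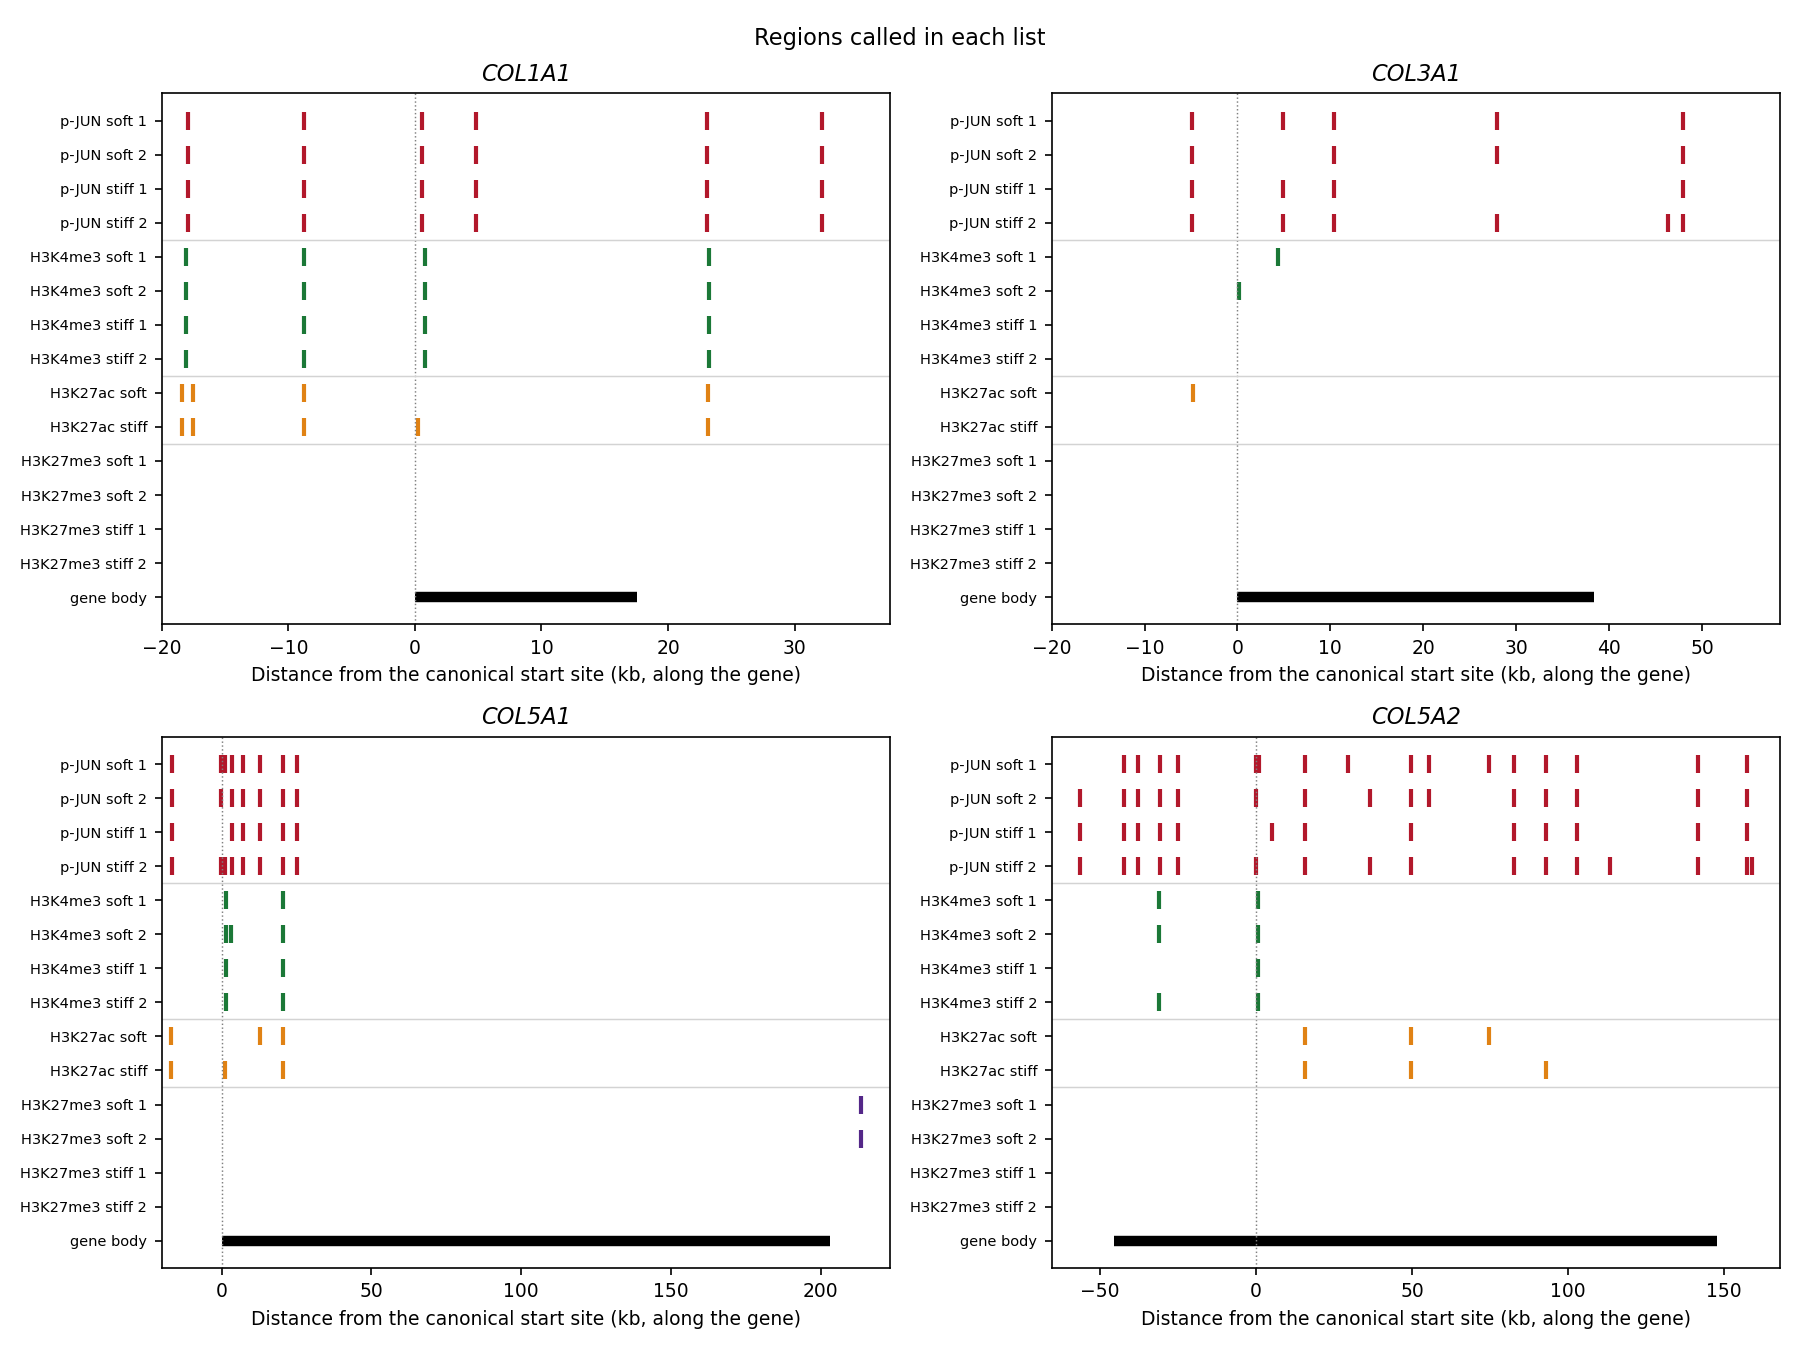
Regions called in each list (rows, coloured by antibody) at COL1A1, COL3A1, COL5A1 and COL5A2, by distance from the canonical start site in kb along the gene. Each tick marks the centre of a region and not its width, and the black bar is the gene body. COL1A1 shows p-JUN, H3K4me3 and H3K27ac at the same places 8.9 kb upstream and 23.1 kb downstream of the start in every list, and H3K27ac at its start in the stiff list alone.

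CpG number did not sort the genes by H3K4me3 within 1 kb of a start. Within 500 bp of the canonical start, COL2A1 had 88 CpG, between the quartiles of genes with H3K4me3 in every library (60 and 100, median 78), yet had no H3K4me3 within 1 kb. COL5A1, with H3K4me3 in all 4 libraries, had 108, above the upper quartile. Its H3K4me3 summit lay 1.27 kb past the start, however, and only the edge of the region came within 1 kb. The region did not reach the stretch within 500 bp in which CpG were counted. COL5A2 had 15 CpG, in the range of the genes with no H3K4me3 (median 21, quartiles 10 to 53), yet had H3K4me3 in all 4 libraries. COL1A1 had 49 CpG, close to COL11A2 with 48 and COL11A1 with 46, which had none within 1 kb. COL1A2 had 38, COL5A3 had 55 and COL3A1 had 10, and none of these had the mark in every library. The CpG count concerns the canonical start, whereas H3K4me3 was looked for at every annotated protein-coding start. Within 2 kb, COL2A1 and COL11A1 also had H3K4me3 in every library.

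**Figure D3:**
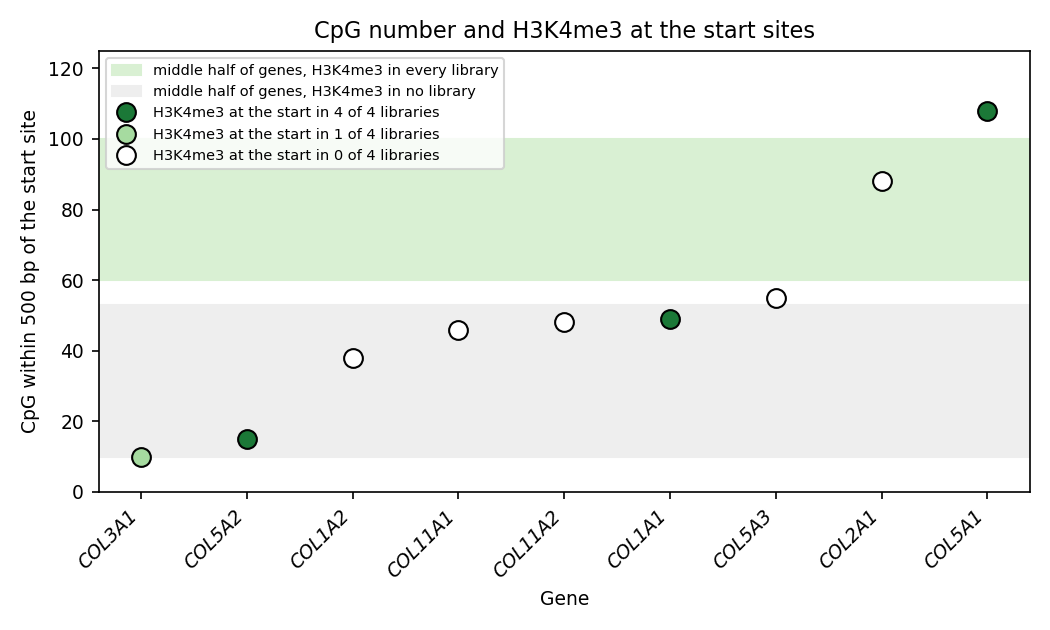
CpG number within 500 bp of the canonical start (y axis) of each gene (x axis, in ascending order), with the fill showing in how many of 4 H3K4me3 libraries a peak lay within 1 kb of a start. Bands span the quartiles of all protein-coding genes with H3K4me3 in every library (60 to 100) and in no library (10 to 53). The 3 filled genes, COL5A2, COL1A1 and COL5A1, are at 15, 49 and 108.

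The levels of p-JUN at the strongest sites were compared on 2 scales, the fold over local background and the fragments at the summit. The highest folds were at the COL11A1 gene (chr1:103357405-103358172), an intronic region 216 kb from the start, with folds of 16.2 and 15.4 on soft versus 17.8 and 16.6 on stiff. Of all p-JUN regions called in 4 libraries, 2.16% had a higher mean fold than this one. The other COL11A1 region, 229 kb from the start and in an exon, had folds of 17.0 and 15.6 on soft versus 14.5 and 16.8 on stiff. At COL3A1 (chr2:189849136-189849853) the fold was 13.7 and 13.1 on soft versus 13.6 and 16.6 on stiff, with a higher mean at 7.70% of regions. COL5A3 (chr19:10119257-10120292), the only strongest site called within 1 kb of the gene's own start, had folds of 12.6 and 12.5 on soft versus 13.3 and 14.1 on stiff. Its summit lay 1.16 kb past the start, and only the edge of the region came within 1 kb.

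By fragments the order differed. The region at COL11A2 and HSD17B8 (chr6:33173025-33173738) held 531 and 448 summit fragments on soft versus 425 and 464 on stiff, and 2.33% of regions held more on average. At COL1A1 the region 8.9 kb upstream (chr17:48286929-48288504) held 470 and 424 on soft versus 395 and 456 on stiff, with more at 2.85% of regions. Its fold was only 8.03 to 8.74, below the median of 8.83 for all regions in 4 libraries, over a local background of 44.3 to 57.6 fragments. The COL1A2 site 12.4 kb upstream held 36 and 27 fragments on soft versus 43 and 46 on stiff, fewer than 84.5% of regions. Within the 9 windows the mean fold of shared regions ranged from 2.93 to 16.5 with a median of 7.59.

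**Figure D4:**
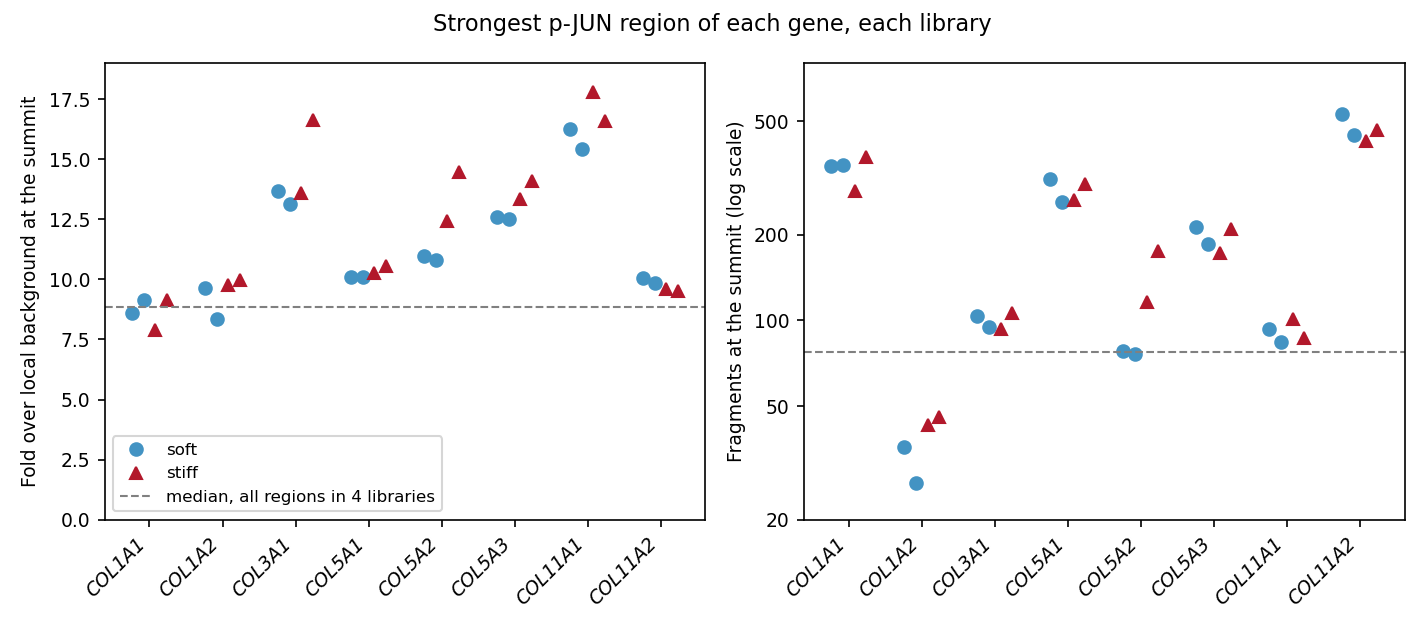
Fold over local background (left) and fragments at the summit (right, log scale) of the region with the highest mean fold at each gene, with 1 point per p-JUN library (circles soft, triangles labelled stiff). The dashed line is the median of all regions called in 4 libraries (8.83 by fold, 77.5 fragments). COL11A1 is highest by fold and COL11A2 by fragments, and at COL5A2 and COL1A2 both stiff points lie above both soft points on either scale. By fold the matrices did not overlap at 37.0% of all regions called in 4 libraries. Neither fold difference passed the limma test (adjusted p = 0.489 at COL5A2 and 0.861 at COL1A2).

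To ask whether p-JUN differed between soft and stiff at these genes, peaks over the 9 windows were totalled, each peak once. There were 48 and 41 on soft versus 38 and 46 on stiff, means of 44.5 ± 4.95 and 42 ± 5.66 (SD, n = 2). The groups overlapped, and the difference was smaller than the spread (exact permutation p = 0.667, two-sided, where 0.33 is the smallest that 2 libraries against 2 can give). The sign of the difference turned when soft replicate 1 or stiff replicate 1 was left out. All 4 libraries shared 33 of the 54 p-JUN regions, or 61.1% against 65.8% of all regions of the series. None was called in both stiff libraries and no soft one, where the series had 2.75%, and 2 were called in both soft and no stiff library, where it had 1.74%. The soft-only regions lay 19.3 kb upstream of COL1A2 (chr7:94004459-94005155), with 24 and 23 summit fragments, and in an intron of COL5A2 (chr2:189988973-189989233), with 20 and 26. Both were weak, at most 26 fragments where the median p-JUN summit held 60 to 64. With either library of a matrix left out, 4 to 8 regions met the looser condition, in both directions.

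The fold at the 33 shared regions was then compared by limma over all 40433 p-JUN regions called in 4 libraries. No region of the series passed an adjusted p of 0.05 (0.00%), and 3833 (9.48%) had an unadjusted p under it. Of the 33, 3 had such an unadjusted p, all at COL5A2. In an intron 103 kb from the start (chr2:189941453-189941783) the fold was 6.40 and 5.55 on soft versus 7.65 and 8.31 on stiff, a difference of 0.38 ± 0.11 (log2, SE, limma adjusted p = 0.421). In another intron, 92.9 kb from the start (chr2:189951312-189951886), it was 11.0 and 10.8 on soft versus 12.4 and 14.4 on stiff, a difference of 0.25 ± 0.09 (limma adjusted p = 0.489). The third, 38.1 kb upstream of the canonical start and within the longest transcripts (chr2:190082255-190082761), went the other way, with folds of 5.99 and 6.14 on soft versus 4.41 and 5.26 on stiff, a difference of −0.38 ± 0.10 (limma adjusted p = 0.413). The groups did not overlap at these regions, and none passed the test. Before centring, the 2 matrices did not overlap at 13 of the 33 regions, compared with 37.0% of all.

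Elsewhere the differences were within the range of all regions. At the p-JUN region over the COL1A1 start the fold was 4.34 and 3.98 on soft versus 3.36 and 4.19 on stiff, so that the groups overlapped, with a difference of −0.19 ± 0.11 (limma adjusted p = 0.643). The COL5A3 start had 0.08 ± 0.09, the strongest COL3A1 region 0.12 ± 0.10, and the strongest COL11A1 region 0.07 ± 0.11, all log2 with SE and none past the test. Over the 33 regions 16 were higher on stiff, compared with 47.4% of all regions, the median was 0.00 and the range −0.38 to 0.38. Over all regions the median was −0.01, with 5th and 95th percentiles of −0.27 and 0.27. Before centring, all p-JUN values moved up by about 0.04, which left 21 of the 33 higher on stiff, compared with 60.8% of all regions.

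**Figure D5:**
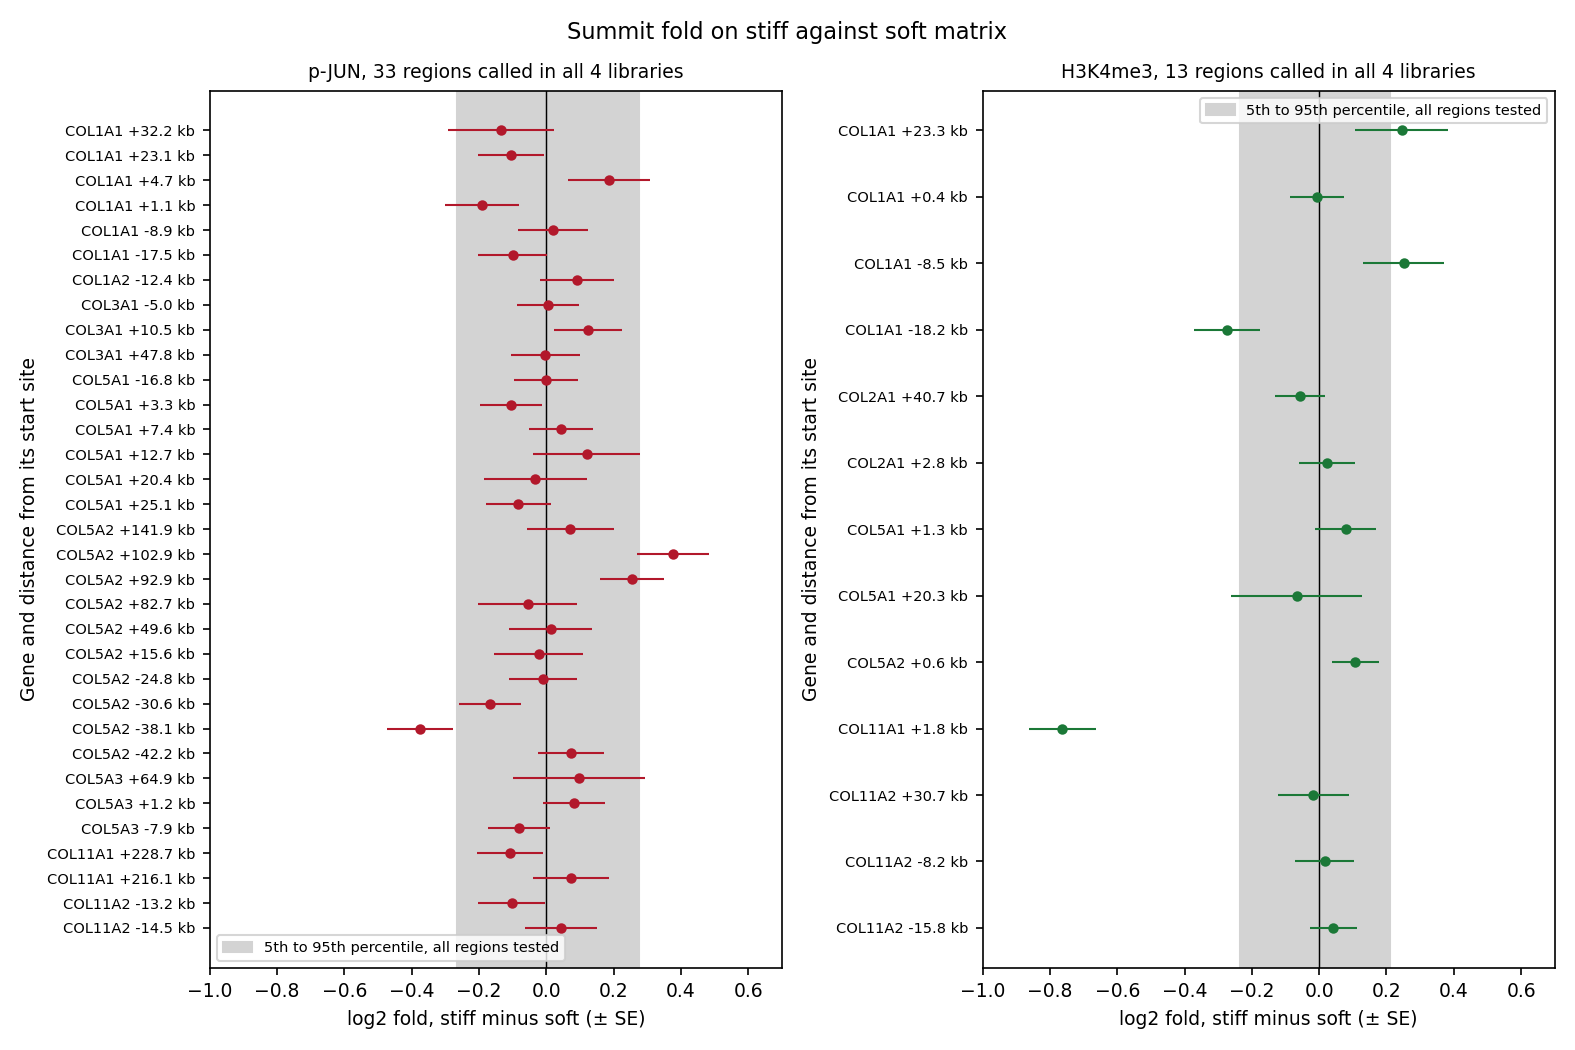
Difference in log2 summit fold, stiff minus soft (x axis, bars ± SE from limma), of the 33 p-JUN and 13 H3K4me3 regions called in all 4 libraries, labelled by gene and distance from the canonical start. The grey band holds the 5th to 95th percentile of all regions tested (−0.27 to 0.27 for p-JUN and −0.23 to 0.21 for H3K4me3). The H3K4me3 region in COL11A1 lies at −0.76, and no region passed the adjusted test.

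For H3K4me3 the 9 windows held 15 and 17 peaks on soft versus 14 and 14 on stiff, means of 16 ± 1.41 and 14 ± 0 (SD, n = 2). The groups did not overlap, and the exact permutation p was 0.333, the smallest possible here. Of 19 regions, 13 were called in all 4 libraries, compared with 78.9% of all regions, and none was called on 1 matrix alone in both libraries (1.77% stiff-only and 1.25% soft-only in the series). Of the other 6, the region of COL5A2 upstream of its canonical start was called in 3 libraries and each of the rest in 1, namely 2 in COL3A1, 1 in COL5A1 and 1 upstream of COL1A2 on soft, and 1 upstream of COL1A2 on stiff. COL1A1 carried H3K4me3 not only at its start but also at the 3 places 23.3 kb downstream, 8.5 kb and 18.2 kb upstream where p-JUN and H3K27ac were called, with 29 to 63 summit fragments at each, compared with 234 to 464 at the start.

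The largest H3K4me3 difference was in COL11A1. An intronic region 1.8 kb past the canonical start (chr1:103572069-103572720) had folds of 12.2 and 10.9 on soft versus 7.46 and 6.87 on stiff, from 35 and 31 summit fragments on soft versus 18 and 19 on stiff. The groups did not overlap, and the fragments were fewer on stiff although the median H3K4me3 summit held more fragments in the stiff libraries (151 and 207) than in the soft ones (120 and 141). The log2 difference was −0.76 ± 0.10 (SE). The region's unadjusted limma p was the 7th lowest of 16098, and its adjusted p of 0.342 did not pass. No region of the series passed (0.00%), and 1635 (10.2%) had an unadjusted p under 0.05, including 2 of the 13 member regions. Neither p-JUN, H3K27ac nor H3K27me3 was called there. The 201 bases around the summit, plus strand of GRCh37, hold 5 CpG, in capitals.
COL11A1, chr1:103572213-103572413: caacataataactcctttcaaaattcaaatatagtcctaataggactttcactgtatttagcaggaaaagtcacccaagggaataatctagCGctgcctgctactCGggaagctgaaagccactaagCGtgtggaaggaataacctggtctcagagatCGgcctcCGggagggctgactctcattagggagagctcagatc

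The other member region with an unadjusted p under 0.05 lay 18.2 kb upstream of COL1A1, with folds of 9.81 and 9.65 on soft versus 9.10 and 7.90 on stiff, a difference of −0.27 ± 0.10 (limma adjusted p = 0.457). At COL2A1 the H3K4me3 region 2.8 kb into the gene had folds of 7.77 and 7.72 on soft versus 7.79 and 8.83 on stiff, a difference of 0.02 ± 0.08. Its edge overlapped that of an H3K27me3 peak, which was called in soft replicate 1 alone. The H3K4me3 region ended at position 48396619 and the H3K27me3 peak began at 48396597, so the marks shared only a few bases. The second H3K4me3 region of the COL2A1 window was at the start of the neighbouring gene TMEM106C, and 2 of the 3 in the COL11A2 window were at the starts of RXRB and SLC39A7, which lie next to each other, and of RING1.

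For H3K27ac the 9 windows held 14 peaks on soft and 13 on stiff, and with 1 list per matrix there was no test. Of 17 regions, 10 were called on both matrices, compared with 54.1% of all regions. A further 3 were called in the stiff list alone, where the series had 10.9%, and 4 in the soft list alone, where it had 35.0%. With lists of equal length the windows held 11 peaks on soft and 13 on stiff, and 4 regions were stiff-only and 2 soft-only. All 17 regions of the full lists overlapped a p-JUN region, as did 91.1% of all H3K27ac regions, whereas 16 of the 54 p-JUN regions overlapped H3K27ac, compared with 29.7%. For H3K4me3, 13 of the 19 regions overlapped p-JUN, compared with 67.1%, and 13 of the 54 p-JUN regions overlapped H3K4me3, compared with 23.0%.

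The stiff-only regions included the start sites of COL1A1 and COL5A1. At COL1A1 (chr17:48278496-48279048) the summit held 42 fragments at a fold of 4.23 and a −log10 q of 11.9. At COL5A1 (chr9:137534645-137534970) it held 28 fragments at a fold of 4.96 and a −log10 q of 9.89. The COL5A1 summit lay 1.17 kb past the start, and only the edge of the peak came within 1 kb. H3K27ac at a start in the stiff list alone was found at 2.58% of all protein-coding genes and in the soft list alone at 10.7%, and no fibrillar collagen gene had it in the soft list. At both starts H3K4me3 was called in all 4 libraries. The third stiff-only region lay in an intron of COL5A2 (chr2:189951460-189951711), with 20 fragments, a fold of 6.80 and a −log10 q of 10.6. It lay on the p-JUN region 92.9 kb from the start, where p-JUN summit fragments were 78 and 76 on soft versus 116 and 175 on stiff. The local background there was also higher on stiff (6.20 and 6.12 fragments on soft versus 8.42 and 11.2 on stiff). The p-JUN difference did not pass the limma test by fold (adjusted p = 0.489) or by summit fragments (adjusted p = 0.0665).

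The soft-only regions were 4.8 kb upstream of COL3A1 (chr2:189834198-189834483), with 16 fragments at a fold of 7.07, in introns of COL5A1 (chr9:137546097-137546544), with 26 at 6.22, and of COL5A2 (chr2:189969561-189969985), with 17 at 5.82, and near the 3′ end of COL11A1 (chr1:103345049-103345622), with 25 at 6.91. These were the only H3K27ac regions of COL3A1 and COL11A1. Beneath those at COL3A1, COL5A1 and COL11A1 every p-JUN library had a peak, with log2 differences of 0.00 ± 0.09, 0.12 ± 0.16 and −0.11 ± 0.10 (SE) and none past the limma test. The p-JUN region beneath the COL5A2 one was called in soft replicate 1 alone.

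At the 10 shared H3K27ac regions the log2 ratio of stiff to soft fold had a median of −0.13, close to the −0.11 of all 11044 shared regions, and ranged from −0.75 to 0.46. The lowest was in an intron of COL5A2, 49.7 kb from the start, with folds of 9.51 on soft and 5.64 on stiff. The highest was in the same gene, 15.9 kb from the start, with a fold of 5.47 on soft and a fold on stiff higher by 0.46 (log2). The 5th and 95th percentiles of all shared regions were −0.52 and 0.31, so these COL5A2 regions were outside them on either side. At COL1A1 the 4 shared regions went both ways, from −0.28 downstream of the gene to 0.20 at the region 9.0 kb upstream.

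For H3K27me3 the windows held 11 and 4 peaks on soft versus 2 and 6 on stiff, means of 7.5 ± 4.95 and 4 ± 2.83 (SD, n = 2, exact permutation p = 0.667), and the groups overlapped. Soft replicate 1, with the longest H3K27me3 list, held 11 of them, and without it the means were equal at 4. No region was called in all 4 libraries, where the series had 10.2%, and none was stiff-only, where it had 0.484%. The mark was most frequent at COL2A1, with 5 and 1 peaks on soft versus 1 and 3 on stiff, at folds of 1.93 to 2.24. It was called in no list at COL1A1, COL3A1, COL5A2 and COL11A2. The soft-only region was downstream of COL5A1, 213 kb from its start (chr9:137746198-137747638), with folds of 2.95 in both libraries, and 7.54% of all regions of the series were soft-only. None of the 54 p-JUN regions overlapped H3K27me3, compared with 1.28%, and none of the 13 H3K27me3 regions overlapped p-JUN, compared with 2.94%.

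The AP-1 motif lay within 50 bp of the strongest summit at 13 of the 54 p-JUN regions, or 24.1%, and at 30.6% of all 61411 p-JUN regions. At positions 1 kb to the side the shares were 2.78% and 1.75%. Among the 33 regions called in all 4 libraries it was 33.3%, compared with 34.8%. By gene the motif was found at 2 of 6 regions of COL1A1, 2 of 6 of COL3A1, 1 of 8 of COL5A1, 4 of 21 of COL5A2, 2 of 4 of COL5A3 and 2 of 5 of COL11A2. It was found at none of 4 regions of COL1A2 and none of 2 of COL11A1, although the latter had the highest folds. The strongest sites of COL3A1, COL5A1 and COL11A2 printed above were among those with the motif.

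The genes that make and process procollagen were compared at their start sites. Of 18 genes for procollagen folding and modification, among them the prolyl and lysyl hydroxylases and the chaperone gene SERPINH1, 17 had H3K4me3 in every library and 12 had p-JUN in every library, compared with 62.8% and 38.2% of all protein-coding genes. P4HB, a subunit of prolyl 4-hydroxylase, had H3K27ac in the soft list alone. Of 10 genes for procollagen export and cleavage, 9 had H3K4me3 and 4 had p-JUN in every library. ADAMTS3, a procollagen N-proteinase, had H3K27ac in the soft list alone, and PCOLCE2, an enhancer of the C-proteinase, had H3K27me3 in both stiff libraries and no soft one, while 0.0354% of all genes did.

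Of 11 other fibril-forming or fibril-associated collagens, 5 had H3K4me3 and 2 had p-JUN in every library. COL12A1, a collagen on the surface of type I fibrils, had H3K27ac at the start in the stiff list alone, as COL1A1 and COL5A1 did. COL9A1 and COL21A1 had H3K27me3 in both soft libraries and no stiff one (0.844% of all genes). Of 6 collagen receptors, 5 had H3K4me3 and 4 had p-JUN in every library. H3K27ac was in the stiff list alone at ITGA2 and DDR2 and in the soft list alone at ITGA1. Among the stellate cell and fibroblast markers, PDGFRB had p-JUN in both soft libraries and neither stiff one (0.925% of all genes) and H3K27ac in the soft list alone, RGS5 had H3K27ac in the soft list alone, and LHX2 had H3K4me3 in both stiff libraries alone (0.207%).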

How the data were processed

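For the LX-2 libraries the authors used Trim Galore, Bowtie2 with the hg19 genome, Picard for duplicates and MACS2 for peaks. The version, options and control of MACS2 are not given in the sources used here. Each assay used 10000 cells by the labels and more by the study's methods. Deposited with each peak were its fold, a ratio of summit to local background within that library, −log10 p-values and q-values, a score derived from q by the authors' peak caller and, in narrow lists, a summit position in another column. Narrow lists (p-JUN, H3K4me3, H3K27ac) held no peak with −log10 q under 5. No scaling between lists was applied, and more depth can give more peaks. The depth behind H3K27me3 is unknown.

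Groups follow the treatment label. Peaks on 24 chromosomes were merged into regions where those of 1 mark shared at least 1 bp. Summit fragments were recovered from fold and p at a relative error under 0.0001. A start call was a peak within 1 kb of a protein-coding start in GENCODE release 44. For p-JUN and H3K4me3, limma 3.58.1 (R 4.3.3) was fitted to log2 fold, centred on each library's median, over all regions in 4 libraries, with Benjamini-Hochberg adjustment at 0.05. The rest was computed in python 3.11.15 (pandas 2.3.3, numpy 2.4.6, scipy 1.17.1) and drawn with matplotlib 3.10.9. On data simulated from the p-JUN comparison (40433 regions), limma called all 200 regions planted with a log2 change of 1 and 7 others, and the region step found all 200 planted regions of each kind. In that simulation the unchanged regions had no matrix effect, so it does not cover batches. All regions were given the same spread and no smaller change was planted. The recovery of smaller changes, or of changes at noisier regions, was therefore not tested.

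The genes and gene lists were chosen with earlier results of these data known, and no result here is independent of those. Named regions were those on 1 matrix alone in or at a gene, the strongest p-JUN region per gene and those past the limma threshold, and named neighbours and list genes had start calls as described. Regions with an unadjusted p under 0.05, shared H3K27ac regions and other regions were named after their values were seen. Alternatives were other windows, stricter q, lists of equal length, reciprocal overlap, other scalings, each library left out and a replicate block.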

Additional observations from a re-analysis of the deposited data

How the results depend on the processing

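No region of the 9 windows passed the limma test under any of the alternatives run, which were no centring, quantile normalization, summit fragments in place of fold, a minimum mean fold, each library left out and the replicate block. With summit fragments 10 H3K4me3 and 0 p-JUN regions of the series passed. The p-JUN region 92.9 kb from the COL5A2 start then had a log2 difference of 0.83 with a limma adjusted p of 0.0665. The COL11A1 H3K4me3 region had a log2 difference of −1.30 with a limma adjusted p of 0.0661. Its difference was −0.86 to −0.66 with each library left out, and the regions with an unadjusted p under 0.05 kept their direction throughout. The log2 ratio of stiff to soft peak totals was −0.08 (p-JUN), −0.19 (H3K4me3), −0.11 (H3K27ac) and −0.91 (H3K27me3). With each library left out, the p-JUN ratio lay between −0.23 and 0.048 (0.035 without soft replicate 1 and 0.048 without stiff replicate 1), that of H3K4me3 between −0.28 and −0.10, and that of H3K27me3 between −1.91 and 0. With lists of equal length the H3K27me3 ratio was 0, and that of H3K27ac turned to 0.24 (11 peaks on soft, 13 on stiff). In gene bodies alone the H3K27ac ratio was 0. Counts of regions on 1 matrix alone were unstable. For p-JUN, 2 became 1 at a −log10 q of at least 10 and 1 in gene bodies alone, and 4 to 8 with each library left out. For H3K4me3, 0 became 1 with lists of equal length and 0 to 3 with each library left out. For H3K27ac, 7 became 11 with a reciprocal overlap of at least 50%. For H3K27me3, 1 became 0 with lists of equal length, at a −log10 q of at least 2 and in gene bodies alone, and 1 to 5 with each library left out. The AP-1 share was 9.26% within 25 bp, where all p-JUN regions had 14.2%. H3K4me3 in every library was found at 5 members within 2 kb of a start and at 3 within 1 kb. The cause of these changes was not tested beyond what the settings themselves state.

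Libraries of both matrices share replicate numbers, but only 2 pairs exist, and the deviations of same-numbered libraries correlated at 0.00 for p-JUN and −0.05 for H3K4me3 across regions, so the numbers were not taken as pairs. With a replicate block the log2 ratio of p-JUN totals was −0.09, that of H3K4me3 −0.19 and that of H3K27me3 −0.94, and 0 member regions passed the limma test for either mark. H3K27ac has no replicates and allows no such fit or omission.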

Other observations

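p-JUN was also called at the starts of some marker genes of other liver cell types that lacked H3K4me3. SERPINA1 and HNF4A (hepatocyte), CDH5 (endothelial), and CD68 and CSF1R (macrophage) each had a p-JUN peak within 1 kb of a start in all 4 libraries and H3K4me3 in none, the same combination as COL5A3. In every library p-JUN was at 2 of 6 hepatocyte, 1 of 4 endothelial, 2 of 5 macrophage and leukocyte and 1 of 4 cholangiocyte markers. Of all protein-coding genes, 38.2% had it. How many genes had p-JUN without H3K4me3 was not counted. CD68 also had H3K27ac in both lists and CSF1R in the soft list. PDGFRA, a receptor gene of stellate cells and fibroblasts, had H3K27me3 at a start in all 4 libraries and H3K4me3 in 1 soft library.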
